A study of Mus musculus with 12 samples.

Results

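Drug efflux transporters and organic cation carriers are the doors by which conjugates, signalling molecules and small cations leave or enter a macrophage. Expression of 9 genes of this kind was examined on microarrays of bone marrow-derived macrophages (BMDMs), out of 18193 genes measured. They were taken by name as the ABC pumps Abcc1, Abcc3, Abcc4, Abcc5, Abcb1a, Abcb1b and Abcg2 and the carriers Slc22a4 and Slc22a5, and they are read by 22 of the 34945 probe sets that name a single gene. A probe set is a group of short probes on the array, and a gene is read here by the brightest of its own, on average over the arrays, with all the others described beside it.

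The arrays fall into 4 groups of 3. Stimulated Nos2-/- and stimulated WT BMDMs were exposed for 8 h to LPS at 100 ng/mL and IFNγ at 50 ng/mL, and untreated Nos2-/- and untreated WT BMDMs received neither. Nos2-/- animals, which lack the inducible nitric oxide synthase, were of the line B6.129P2-Nos2tm1Lau/J, and WT animals were C57BL/6. Both lines were bred in 1 facility, mice of 6 to 10 weeks were used, and all marrow was grown with 20 ng/mL of M-CSF for 5 to 7 days. No rescue of Nos2 stands among the groups, so that loss of the gene and any other difference between the lines cannot be told apart. Values are log2 signals, on which a step of 1 is a doubling, and p-values are from limma with Benjamini-Hochberg adjustment over all 18193 genes. A gene is called higher or lower at an adjusted p under 0.05. The Nos2 probe set read 7.69 ± 0.22 in stimulated Nos2-/- and 9.73 ± 0.09 in stimulated WT, against 5.31 ± 0.14 in untreated Nos2-/- and 5.50 ± 0.14 in untreated WT (SD, n = 3 each). Whether its probes lie in the deleted part is not known here, so it does not check the genotype.

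All 10 macrophage markers lay above the array median on every array, and their mean signal was between 11.4 and 11.6 in each group. Single markers moved in opposite directions under this mean. Marco averaged 5.46 in untreated and 8.77 in stimulated Nos2-/-, and 5.60 and 9.02 in WT. Mrc1 averaged 9.91 in untreated and 7.27 in stimulated Nos2-/-, and 10.2 and 7.32 in WT. Of the mast cell and basophil markers, 6 of 6 lay below the median throughout, and of the fibroblast and stroma markers 5 of 6. Above it on all arrays lay 3 of 6 dendritic cell, 3 of 6 T and NK cell, 2 of 5 B cell and 1 of 4 erythroid markers. Of the neutrophil markers, 6 of 9 lay above the median on all arrays, and their mean signal was 7.44 to 7.59 in stimulated Nos2-/- and 7.38 to 7.48 in stimulated WT, against 6.67 to 7.04 in untreated Nos2-/- and 6.58 to 6.88 in untreated WT. Their part in the responses given here was not tested. None of the 52 markers of 8 cell type lists was called between the stimulated genotypes (limma; 3 had an unadjusted p under 0.05). In whole cultures fewer cells of a type and less RNA per cell cannot be told apart.

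ABC pumps spend ATP to move their cargo across a membrane. The ABCC family, the multidrug resistance-associated proteins, exports organic anions, among them conjugates of glutathione, glucuronides and cyclic nucleotides. ABCB1, or P-glycoprotein, exports bulky hydrophobic drugs and is made in rodents from the pair Abcb1a and Abcb1b, while ABCG2, the breast cancer resistance protein, exports urate, porphyrins and many drugs. SLC22A4 and SLC22A5 work without ATP hydrolysis: SLC22A4 takes up ergothioneine, a diet-derived antioxidant thiol, and SLC22A5 takes up carnitine, which carries long-chain fatty acids into mitochondria.

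Between the genotypes after stimulation, the carrier Slc22a4 and the pump Abcc1 were lower in Nos2-/- than in WT, and no member was higher. Slc22a4 was 2.95-fold lower and Abcc1 1.37-fold lower. These are 2 of 9 members called lower, where 1.91% of all genes were called lower, and 0 of 9 called higher, where 1.03% of all genes were (limma; 4 of 9 had an unadjusted p under 0.05). The median difference of the members was -0.04, against -0.01 over all genes. The members were few and were chosen with earlier results of these data known. The counts therefore describe these genes and say nothing of transporters as a class.

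Slc22a4 was the member that differed most between the genotypes. Its signal on the 3 arrays was 5.86, 5.55 and 5.58 in stimulated Nos2-/-, against 7.04, 7.30 and 7.34 in stimulated WT. In the untreated groups it was 6.18, 6.12 and 6.18 in Nos2-/-, against 5.91, 5.93 and 5.87 in WT. The 3 stimulated WT arrays were the highest of the 12 and the 3 stimulated Nos2-/- arrays the lowest, and no group overlapped with another, although the highest stimulated Nos2-/- array nearly touched the lowest untreated WT array. The difference between the stimulated genotypes was -1.56 (SE 0.09, 95% confidence interval -1.76 to -1.36, adjusted p = 4.4e-07), the eleventh most negative of all 18193.

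Stimulation moved Slc22a4 in opposite directions. In Nos2-/- it fell by 0.49 (SE 0.09, adjusted p = 3.9e-04), and in WT it rose by 1.32 (SE 0.09, adjusted p = 2.1e-08), or 2.50-fold. The difference between these responses was -1.82 (SE 0.13, interval -2.10 to -1.53, adjusted p = 7.4e-06). Its calls between the stimulated genotypes and on the difference were kept in every alternative tried. The call of the fall in Nos2-/-, a 1.41-fold change, was lost in 1 of 16 alternatives, the 1.5-fold threshold of the methods. The untreated groups also stood apart without overlap, with Nos2-/- above WT by 0.26 (SE 0.09), but this did not pass the adjustment (adjusted p = 0.9999, unadjusted p = 0.0159). The array holds 1 probe set for Slc22a4 alone, so no second reading of it was possible.

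**Figure D1:**
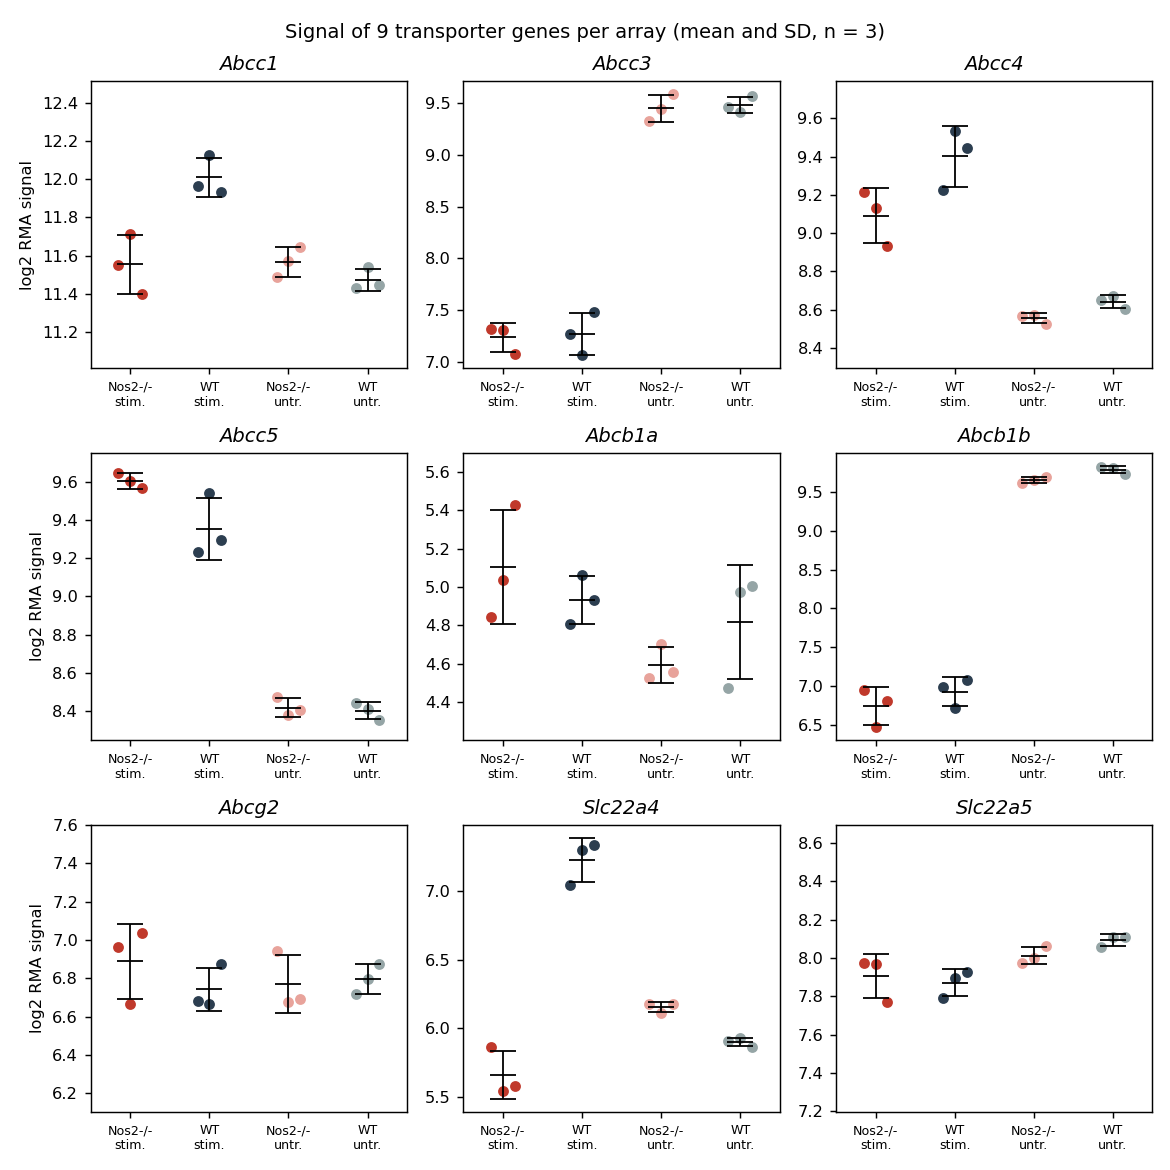
Log2 signal of the 9 genes on each of the 12 arrays, with the mean and SD of each group (n = 3); each panel has its own vertical scale. In the Slc22a4 panel stimulated Nos2-/- arrays lie at 5.55 to 5.86 and stimulated WT arrays at 7.04 to 7.34, while Abcc3 and Abcb1b are low in both stimulated groups.

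Slc22a4 and Slc22a5 stand on chromosome 11 with a single gene, Slc22a21, between them, and with 483 to 485 protein-coding genes between the cluster and Nos2 on the same chromosome. The neighbours did not share the pattern of Slc22a4. Slc22a5 read 7.97, 7.97 and 7.77 in stimulated Nos2-/- and 7.79, 7.90 and 7.93 in stimulated WT, against 7.98, 8.00 and 8.06 in untreated Nos2-/- and 8.06, 8.11 and 8.11 in untreated WT. The stimulated genotypes overlapped, and their difference was 0.03 (SE 0.07, interval -0.12 to 0.18, adjusted p = 0.8814). In both genotypes all stimulated arrays lay below the untreated ones, with differences of -0.11 in Nos2-/- (adjusted p = 0.2061) and -0.22 in WT (adjusted p = 0.0148). The WT call was lost without WT stimulated replicate 1 (adjusted p = 0.0639), after centring of the arrays (adjusted p = 0.1705) and after quantile normalization (adjusted p = 0.6940). As a 1.17-fold change it was also lost at the 1.5-fold threshold of the methods.

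The second Slc22a5 probe set fell by 0.35 in Nos2-/- (adjusted p = 0.0090 over all probe sets) and measured -0.21 in WT (adjusted p = 0.0923). Thus each probe set passed the test in 1 genotype, and a different one in each. For Slc22a21, a carrier of the same family named here for its place between the others, the difference between responses was 0.23 (adjusted p = 0.6662), with 0.14 in Nos2-/- and -0.09 in WT. Its arrays read between 4.48 and 5.03, below the median of every array.

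Short motifs were looked for in the promoters of members with a RefSeq entry (GRCm38.p6, 7 of 9 genes, 10 windows of 300 bases reaching from upstream to just past the start site). Abcc1 and Abcc3 had no window and were not searched. Those of Slc22a4, the member that differed most, and of its neighbour Slc22a5 are shown, with that of Abcc4 as the one window that holds both motifs marked. Read 5′ to 3′ along the gene, capitals mark GCGTG, the core of the xenobiotic response element bound by the aryl hydrocarbon receptor, and TGACNNNGC, the core of the antioxidant response element bound by Nrf2, on either strand.
Slc22a4, chr11:54028055-54028354, minus strand: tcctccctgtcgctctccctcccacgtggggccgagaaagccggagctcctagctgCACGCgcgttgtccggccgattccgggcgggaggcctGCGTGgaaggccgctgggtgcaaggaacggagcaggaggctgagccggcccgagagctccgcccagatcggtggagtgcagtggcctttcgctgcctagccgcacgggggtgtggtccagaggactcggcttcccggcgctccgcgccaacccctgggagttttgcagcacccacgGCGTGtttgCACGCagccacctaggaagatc
Slc22a5, chr11:53891654-53891953, minus strand: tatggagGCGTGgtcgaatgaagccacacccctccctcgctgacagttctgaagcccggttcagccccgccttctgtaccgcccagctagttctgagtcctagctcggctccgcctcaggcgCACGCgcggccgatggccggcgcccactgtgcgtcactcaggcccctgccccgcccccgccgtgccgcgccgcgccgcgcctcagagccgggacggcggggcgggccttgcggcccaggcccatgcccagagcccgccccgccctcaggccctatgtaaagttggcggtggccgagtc
Abcc4, chr14:118706170-118706469, minus strand: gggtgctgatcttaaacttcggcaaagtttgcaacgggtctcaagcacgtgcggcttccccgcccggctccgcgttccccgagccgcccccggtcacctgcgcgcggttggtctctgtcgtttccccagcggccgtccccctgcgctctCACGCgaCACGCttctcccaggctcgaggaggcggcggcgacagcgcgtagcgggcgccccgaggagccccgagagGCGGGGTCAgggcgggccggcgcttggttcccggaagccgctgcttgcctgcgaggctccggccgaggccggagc

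The Slc22a4 window held 4 matches to GCGTG and none to TGACNNNGC, the Slc22a5 window 2 and none, and the Abcc4 window 2 and 1. Over all 32851 RefSeq windows of that length, 32.4% held GCGTG and 12.4% held TGACNNNGC, while among the 10 windows of the members 4 and 3 did. The fourth with GCGTG was that of Abcg2. The third window with TGACNNNGC beside both Abcc4 windows was that of Abcb1a. The kappa B form GGGANNTTC was in 0 of the 10 windows and in 3.94% of all windows, and the interferon-stimulated form GAAANNGAA was in 1, that of Abcg2, and in 8.56% of all. In the windows printed no match overlapped another. A match is not a measured binding site.

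Abcc1, which exports glutathione conjugates, oxidized glutathione and leukotriene C4, was the other member that differed between the stimulated genotypes. It read 11.55, 11.71 and 11.40 in stimulated Nos2-/-, against 11.96, 12.13 and 11.93 in stimulated WT. The groups did not overlap, and the difference was -0.45 (SE 0.08, interval -0.64 to -0.27, adjusted p = 0.0085). In the untreated groups it read 11.49, 11.57 and 11.64 in Nos2-/-, against 11.43, 11.54 and 11.45 in WT, and these overlapped. The call between the stimulated genotypes was lost with only those 2 groups in the model (adjusted p = 0.0713).

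Abcc1 rose by 0.54 in WT on stimulation (SE 0.08, adjusted p = 8.5e-05), and in Nos2-/- the response was -0.01 (SE 0.08, interval -0.20 to 0.17, adjusted p = 0.9085). The WT rise, 1.45-fold, fell short of the 1.5-fold threshold of the methods. The difference between the responses was -0.55 (SE 0.12, interval -0.81 to -0.29) and lay at the threshold (adjusted p = 0.0496). It was no longer called in 16 of 21 alternatives, among them the omission of any 1 array other than Nos2-/- stimulated replicate 2 (adjusted p = 0.0647 to 0.1430 without each of the others), and without single arrays its value stayed between -0.63 and -0.47. The second Abcc1 probe set read lower in stimulated Nos2-/- too, at 9.69, 9.75 and 9.33, against 9.97, 10.27 and 9.97 in stimulated WT. Its difference was -0.48 and that of the first -0.45 in the test over all probe sets, and both passed (adjusted p = 0.0362 and 0.0124). The differences between responses, -0.60 and -0.55, did not pass there (adjusted p = 0.1371 and 0.0722).

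In the difference between the responses, Slc22a4 and Abcc1 were thus the 2 of 9 members called lower, against 0.676% of all genes. No member was called higher (limma), against 0.302% of all genes, and no other member had an unadjusted p under 0.05. For the remaining 7 the difference lay between -0.23, for Abcc4, and 0.39, for Abcb1a. The median over the members was -0.00, against -0.01 over all genes. As above, the members were chosen with earlier results known, so no excess is read from these counts.

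**Figure D2:**
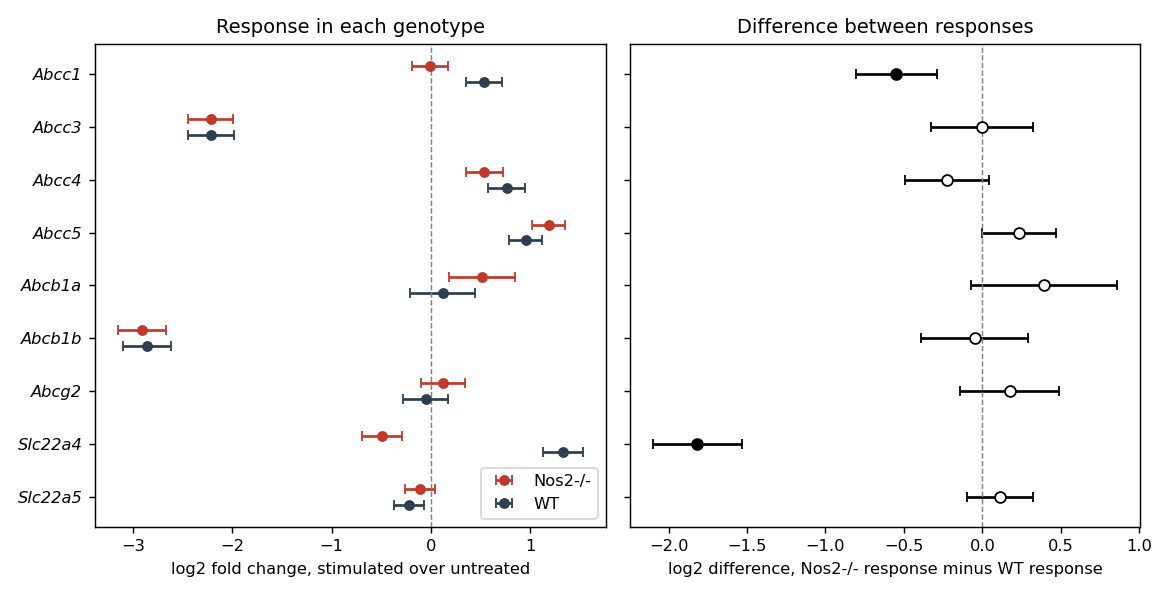
Left, log2 fold change of stimulated over untreated BMDMs for each gene in Nos2-/- and in WT. Right, the Nos2-/- response minus the WT response, with filled points for an adjusted p under 0.05; bars are 95% confidence intervals from limma. Slc22a4 (-1.82) and Abcc1 (-0.55) are the filled points.

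The response to stimulation itself moved the transporters in both directions, with Abcb1b and Abcc3 lower and Abcc4 and Abcc5 higher in each genotype. In Nos2-/- 3 members were called higher and 3 lower, where 26.3% of all genes were called higher and 28.2% lower. In WT 4 were called higher and 3 lower, where 29.6% of all genes were called higher and 28.4% lower. Over all genes more than 1 in 2 were called in each genotype, and the members' counts are read against that. The median response of the members was -0.01 in Nos2-/- and 0.12 in WT, against 0.05 and 0.07 over all genes.

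Abcb1b, which with Abcb1a encodes mouse P-glycoprotein, fell most among the members. It read 6.96, 6.48 and 6.81 in stimulated Nos2-/-, against 9.62, 9.66 and 9.69 in untreated Nos2-/-. In WT it read 6.99, 6.72 and 7.08 after stimulation, against 9.82, 9.80 and 9.73 untreated. Stimulated and untreated arrays were far apart in both genotypes. The response was -2.91 in Nos2-/- (SE 0.11, adjusted p = 3.9e-11), 7.49-fold lower, and -2.86 in WT (SE 0.11, adjusted p = 5.2e-11), 7.24-fold lower. The difference between the responses was -0.05, with an interval of -0.39 to 0.29 (adjusted p = 0.9491).

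A second Abcb1b probe set stayed between 4.51 and 4.88 on every array, below the array medians, and its responses of 0.06 in Nos2-/- and -0.13 in WT were not called. Abcb1a read 4.84, 5.04 and 5.43 in stimulated Nos2-/- and 4.81, 5.06 and 4.93 in stimulated WT, against 4.53, 4.70 and 4.55 in untreated Nos2-/- and 4.47, 4.97 and 5.01 in untreated WT. In Nos2-/- the stimulated arrays lay above the untreated ones, by 0.51 (SE 0.15, adjusted p = 0.0112), whereas in WT they overlapped, with a difference of 0.12 (adjusted p = 0.5321). Without Nos2-/- stimulated replicate 3 the Nos2-/- call was lost (adjusted p = 0.0627).

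The second Abcb1a probe set was higher on stimulation in both genotypes, by 1.01 in Nos2-/- (adjusted p = 9.4e-06) and by 0.49 in WT (adjusted p = 0.0053 over all probe sets). It read 5.28, 5.14 and 5.37 in stimulated Nos2-/- and 4.74, 4.53 and 5.08 in stimulated WT, without overlap, but the difference of 0.48 did not pass (adjusted p = 0.0814). Abcb1a and Abcb1b are close copies, and whether their probe sets read each other's transcripts was not tested, so their values are uncertain. The Abcb1a signals lie near or below the array medians of 5.14 to 5.21. Abcb4, which stands next to the pair on chromosome 5 and moves phosphatidylcholine into bile in liver, fell too, with responses of -2.27 in Nos2-/- and -2.20 in WT.

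Abcc3, which exports glucuronides and bile salts, was the other member that fell sharply. It read 7.32, 7.31 and 7.08 in stimulated Nos2-/-, against 9.33, 9.44 and 9.59 in untreated Nos2-/-. In WT it read 7.26, 7.07 and 7.48 after stimulation, against 9.46, 9.42 and 9.57 untreated. The responses were -2.22 in Nos2-/- (SE 0.11, adjusted p = 3.4e-10) and -2.21 in WT (SE 0.11, adjusted p = 4.0e-10). The difference between the responses was -0.00 (interval -0.33 to 0.32, adjusted p = 0.9976). Abcc3 lies on chromosome 11 with 157 protein-coding genes between it and Nos2.

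Abcc5, an exporter of cyclic nucleotides, rose in both genotypes. Its signal was 9.65, 9.60 and 9.57 in stimulated Nos2-/-, against 8.47, 8.38 and 8.40 in untreated Nos2-/-. In WT it was 9.23, 9.54 and 9.30 after stimulation, against 8.44, 8.41 and 8.36 untreated. The rise was 1.18 in Nos2-/- (SE 0.08, adjusted p = 8.7e-09) and 0.95 in WT (SE 0.08, adjusted p = 9.8e-08). Stimulated Nos2-/- arrays all lay above stimulated WT arrays, by 0.25 (SE 0.08, interval 0.08 to 0.42), but this did not pass the adjustment (adjusted p = 0.1204). It passed without WT stimulated replicate 2, at 0.34 (adjusted p = 0.0195).

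Abcc5 has 10 probe sets, which allow its responses to be read several times on the same arrays. Of these, 9 were called higher in each genotype, by 0.86 to 2.35 in Nos2-/- and by 0.87 to 2.02 in WT. The tenth gave 0.04 in Nos2-/- and 0.08 in WT. Between the stimulated genotypes the 10 probe sets gave differences between -0.07 and 0.27, and none was called (limma; 1 had an unadjusted p under 0.05).

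**Figure D3:**
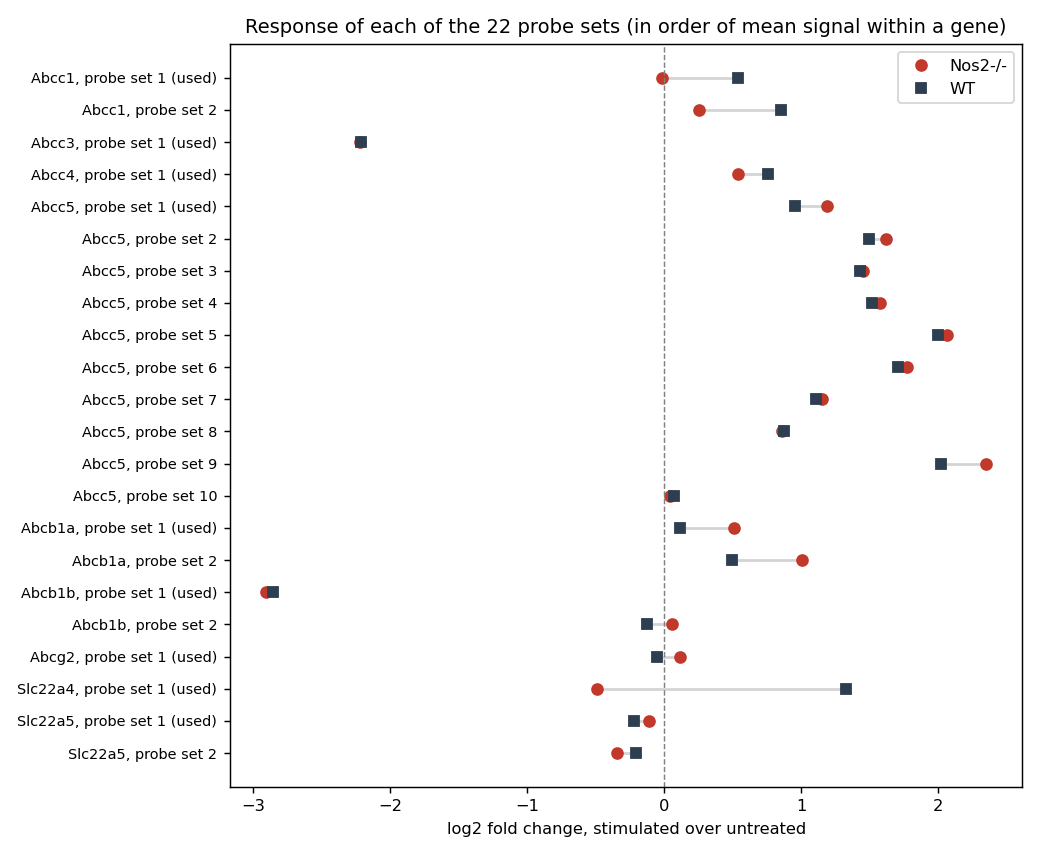
Log2 fold change of stimulated over untreated BMDMs for each of the 22 probe sets, with circles for Nos2-/- and squares for WT; the probe sets of a gene are in order of mean signal. For Slc22a4 and both Abcc1 probe sets the Nos2-/- circle lies to the left of the WT square, and 9 of the 10 Abcc5 probe sets lie between 0.86 and 2.35.

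Over all 22 probe sets, 12 were called higher and 4 lower in the Nos2-/- response, where 23.0% of 45037 probe sets were called higher and 23.1% lower. In the WT response 14 were called higher and 3 lower, where 25.2% were called higher and 23.5% lower. The 9 Abcc5 probe sets make up most of those called higher, and they are repeat readings of 1 gene. Between the stimulated genotypes 3 of the 22 were called lower, those of Slc22a4 and Abcc1, where 1.22% were. In the difference between responses 1 of the 22, that of Slc22a4, was called lower, where 0.384% were.

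Abcc4, which exports cyclic nucleotides, prostaglandins and urate, rose in both genotypes as well. It read 9.21, 9.13 and 8.93 in stimulated Nos2-/-, against 8.57, 8.57 and 8.53 in untreated Nos2-/-. In WT it read 9.23, 9.54 and 9.45 after stimulation, against 8.65, 8.67 and 8.60 untreated. The rise was 0.54 in Nos2-/- (SE 0.09, adjusted p = 1.1e-04) and 0.76 in WT (SE 0.09, adjusted p = 3.6e-06). The stimulated Nos2-/- arrays all lay below the stimulated WT arrays, the nearest pair by little, and the difference was -0.31 (SE 0.09, interval -0.50 to -0.12, adjusted p = 0.0806). It passed without WT stimulated replicate 1, at -0.40 (adjusted p = 0.0251).

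Abcg2 was the one member with no call in any of the 5 comparisons as fitted. It read 6.97, 6.67 and 7.03 in stimulated Nos2-/- and 6.68, 6.67 and 6.87 in stimulated WT, against 6.94, 6.68 and 6.69 in untreated Nos2-/- and 6.72, 6.80 and 6.88 in untreated WT. All 4 groups overlapped. The response was 0.12 in Nos2-/- (adjusted p = 0.3559) and -0.06 in WT (adjusted p = 0.6659). After quantile normalization the Nos2-/- response was 0.30 and was called (adjusted p = 0.0226).

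Before stimulation 0 of 9 members were called between Nos2-/- and WT by limma, where 0.00550% of all genes were called higher and 0.00550% lower. Slc22a4 was the 1 member with an unadjusted p under 0.05. The differences ran from -0.22 for Abcb1a to 0.26 for Slc22a4, and the median was -0.03, against 0.00 over all genes. Besides Slc22a4, the arrays did not overlap for Abcc4 (-0.09) and Abcb1b (-0.13), both lower in Nos2-/-. Their unadjusted p was 0.3430 and 0.2634 (limma). How many of all genes lacked overlap was not counted, so no genotype difference is read from this.

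A further 75 genes with related work were measured of 81 listed. Between the stimulated genotypes 2 of the 75 were called lower and none higher, where 1.91% of all genes were called lower and 1.03% higher, so the count is near that of the whole array. Both genes encode transporters of organelle membranes. Abcb6, a porphyrin transporter, read 7.31, 7.15 and 7.18 in stimulated Nos2-/-, against 7.54, 7.64 and 7.68 in stimulated WT, a difference of -0.41 (SE 0.07, adjusted p = 0.0041). Abcd3, which brings fatty acyl-CoA into peroxisomes, read 8.27, 8.24 and 7.88 in stimulated Nos2-/-, against 8.53, 8.56 and 8.67 in stimulated WT, a difference of -0.46 (SE 0.09, adjusted p = 0.0147). They are 2 of the 9 organelle ABC transporters measured, and the median of that list was -0.11.

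In the other lists no gene was called between the stimulated genotypes (limma). At an unadjusted p under 0.05 there was 1 of 14 other ABCB, ABCC and ABCG transporters, 2 of 9 ABCA lipid transporters and 0 of 17 other carriers of cations, nucleosides and anions. There were 4 of 15 genes of carnitine use and 5 of 11 transcription factors of transporter genes. The medians of these 5 lists lay between -0.12 and 0.07. In the difference between the responses no gene of any of the 6 lists was called, with 0 to 5 genes of a list at an unadjusted p under 0.05. The share of all genes at an unadjusted p under 0.05 was not counted. The unadjusted counts of the lists, and those of the members above, are therefore not read as more or fewer than usual.

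**Figure D4:**
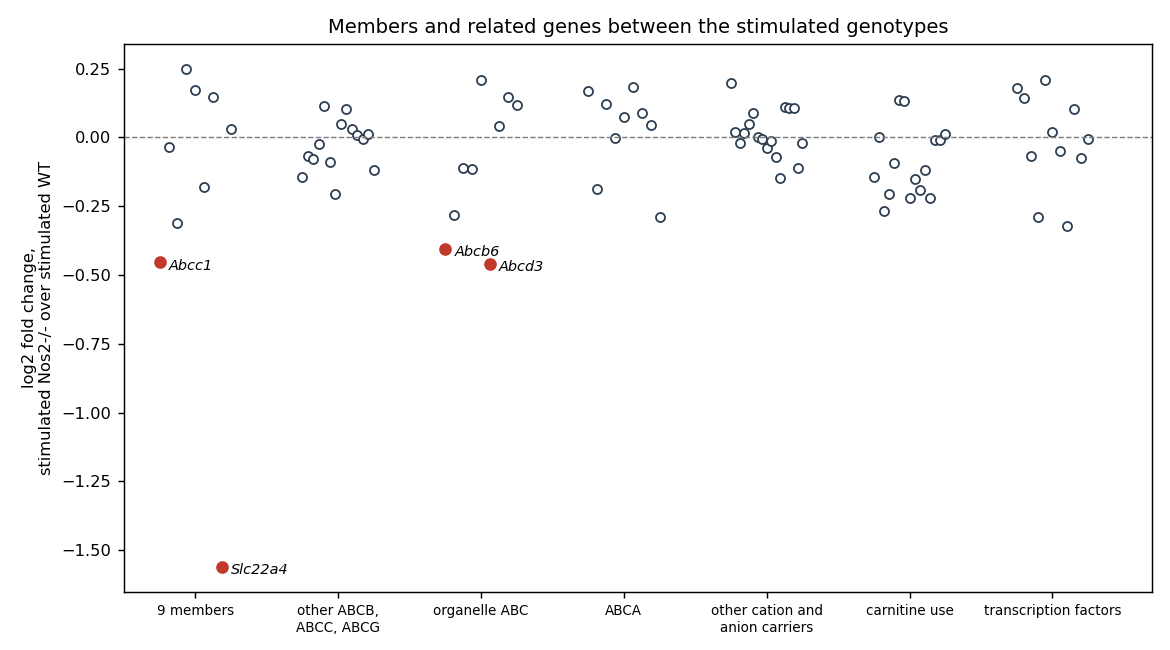
Log2 fold change of stimulated Nos2-/- over stimulated WT for the 9 members and for 75 related genes in 6 lists, 1 point for each gene, filled where the adjusted p is under 0.05. Slc22a4 (-1.56) lies far below all others, and Abcc1, Abcd3 and Abcb6 lie between -0.46 and -0.41.

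For the responses of the related genes to stimulation, the shares called over all genes were, as above, 26.3% higher and 28.2% lower in Nos2-/-, and 29.6% higher and 28.4% lower in WT, with medians of 0.05 and 0.07. The counts of the lists are small, and none was tested against these shares. Among other carriers 4 of 17 were called higher and 4 lower in each genotype, with a median of 0.10 in both. The largest was Slco3a1, an organic anion carrier that also moves prostaglandins, which rose by 4.77 in Nos2-/- and by 4.54 in WT. Slco4a1, which carries thyroid hormone, fell, with responses of -2.59 in Nos2-/- and -2.41 in WT, and so did Slc29a1, the equilibrative nucleoside carrier, at -1.30 in Nos2-/- and -1.17 in WT.

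Among ABCA lipid transporters 2 of 9 were called higher and 4 lower in each genotype, read against the same shares, with a median of -0.09 in Nos2-/- and -0.19 in WT. Abca1, which loads cholesterol onto apolipoprotein A-I, rose by 1.98 in Nos2-/- and by 1.64 in WT, and Abca9 fell, with responses of -2.44 in Nos2-/- and -2.28 in WT. Of the organelle transporters, Tap1 and Tap2, which form the peptide pump of antigen presentation, were the 2 called higher, and Tap1 rose by 2.41 in Nos2-/- and by 2.21 in WT, and Tap2 by 2.24 in Nos2-/- and by 2.05 in WT. Of the other 7, 7 were called lower in Nos2-/- and 6 in WT, among them Abcd2, a peroxisomal transporter, at -2.02 in Nos2-/- and -2.57 in WT. The median of the organelle list was -0.96 in Nos2-/- and -0.71 in WT. Of the other ABCB, ABCC and ABCG transporters, 3 of 14 were called higher and 2 lower in each genotype, with a median of 0.07 in Nos2-/- and 0.12 in WT.

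In carnitine use, 3 of 15 genes were called higher and 7 lower in Nos2-/-, and 4 higher and 7 lower in WT. Over all genes 26.3% were higher and 28.2% lower in Nos2-/-, and 29.6% higher and 28.4% lower in WT. The median of the list was -0.03 in Nos2-/- and 0.02 in WT. Aldh9a1, which makes a carnitine precursor, fell, with responses of -3.00 in Nos2-/- and -2.95 in WT. Acadm, the medium-chain acyl-CoA dehydrogenase, fell too, at -2.00 in Nos2-/- and -1.79 in WT, and so did Crot, a carnitine acyltransferase of peroxisomes, at -1.81 in Nos2-/- and -2.08 in WT. Cpt1a, which joins carnitine to long-chain fatty acids at the mitochondrial outer membrane, was at -1.32 in Nos2-/- and -1.04 in WT, and was called in both.

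Of the transcription factors, 7 of 11 were called higher and 2 lower in Nos2-/-, and 6 higher and 1 lower in WT, with a median of 0.57 in Nos2-/- and 0.29 in WT. These counts stand against the same shares over all genes. Hif1a, the oxygen-regulated subunit of hypoxia-inducible factor, rose by 1.97 in Nos2-/- and by 1.96 in WT, and Keap1, the inhibitor of Nrf2, rose by 1.06 in Nos2-/- and by 1.11 in WT. Ahr, the aryl hydrocarbon receptor, rose by 0.87 in Nos2-/- and by 0.96 in WT. Nfe2l2, which encodes Nrf2, rose by 0.68 in Nos2-/- and by 0.40 in WT. Runx1 had the lowest response of the list in both, at -0.64 in Nos2-/- and -0.68 in WT.

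The genes whose profile was nearest to that of Slc22a4 were found by the root mean square difference of centred log2 signal over the 12 arrays. The nearest was Ptgr1 (0.142), an enzyme of prostaglandin and leukotriene B4 metabolism. Next were Gclm (0.207), a subunit of the enzyme of glutathione synthesis, and Ampd3 (0.237), an AMP deaminase. Srxn1 (0.259), which repairs peroxiredoxins, and Panx1 (0.266), a channel that releases ATP, came after them. Ptgr1 averaged 8.60 in stimulated Nos2-/- and 10.1 in stimulated WT, against 9.07 in untreated Nos2-/- and 9.06 in untreated WT. Like Slc22a4, it had a negative response in Nos2-/- (-0.47) and a positive one in WT (1.07).

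Panx1 had the same pair of signs, at -0.71 in Nos2-/- and 0.72 in WT, and so had Gclm, at -0.70 in Nos2-/- and 1.45 in WT. Srxn1 and Ampd3 had responses near 0 in Nos2-/-, at 0.00 and -0.11, and of 1.76 and 1.53 in WT. The likeness is a description over arrays that share their groups, and Slc22a4 itself was picked for the size of its difference. Of these genes, TGACNNNGC was found in the RefSeq promoter windows of Gclm and Srxn1 and not in those of Ptgr1, Ampd3 or Panx1. This search was added after the values were seen. Over all windows 12.4% held the form. Ampd3 had 3 windows and each of the others 1. The Slc22a4 window held no TGACNNNGC, and the other motifs were searched only in the members. No regulator is read from these matches.

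**Figure D5:**
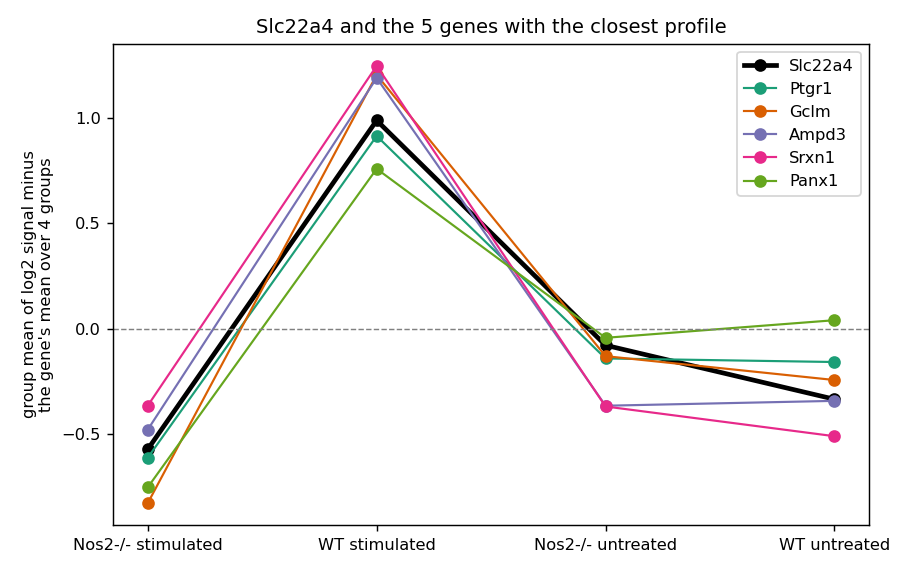
Group means of log2 signal minus each gene's mean over the 4 groups, for Slc22a4 and the 5 genes nearest to it. All 6 are highest in stimulated WT, and Slc22a4 stands at 5.66 in stimulated Nos2-/- and 7.22 in stimulated WT before centring.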

How the data were processed

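The authors normalized the array images (Affymetrix Mouse Genome 430 2.0) by RMA in Partek (version not given in the sources used here) and deposited log2 values. Array medians were 5.14 to 5.21 and values 2.13 to 14.7. The lowest correlation between arrays of a group was 0.9965. The number of arrays limits the precision. Of 45101 probe sets, 64 controls were removed. Of the other 45037, 34945 name exactly 1 gene, 932 several and 9160 none, by GEO's platform annotation. Each of 18193 genes was read by its single-gene probe set of highest mean, with no filter on dim signals.

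limma 3.58.1 in R 4.3.3 (lmFit, eBayes, two-sided) fitted a mean for each group over all 12 arrays. The fit was checked on simulated data. Probe sets were tested in a separate fit over all 45037. Calls were made at an adjusted p under 0.05; the methods' own thresholds (1.5-fold, false discovery rate under 0.5) were tried as an alternative. The labels call the replicates biological and give no animal or culture, so p-values measure the spread between these samples. The untreated arrays are vehicle controls in the methods and precede stimulation in the labels.

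Members, gene lists and tests were chosen with earlier results of these data known. The text names every member and up to 4 called genes of each list in order of fold change. Runx1 was named in addition, for the lowest response among the transcription factors. Also named are the 5 genes nearest in profile to the member with the largest difference between responses. Promoter windows and gene order are from RefSeq GRCm38.p6, searched on both strands with Python 3.11.15. Matplotlib 3.10.9 drew the figures. Alternatives were a model of the compared groups alone, no variance moderation, an intensity trend, centring, quantile normalization, omission of dim genes, the mean of all probe sets, omission of cross-hybridizing probe sets, the methods' thresholds, a replicate block and omission of each array.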

Additional observations from a re-analysis of the deposited data

Results flagged for a closer look

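The response to stimulation differed between the genotypes, by a test of the difference itself in limma, for 2 of the 9 members. Both were called lower, where 0.676% of all genes were called lower and 0.302% higher. The members were chosen with earlier results of these data known, so no excess is read from this. For Slc22a4 the Nos2-/- response minus the WT response was -1.82 on the log2 scale (adjusted p = 7.4e-06). For Abcc1 it was -0.55 (adjusted p = 0.0496), which lay at the threshold, and the call was lost in 16 of 21 alternatives. In the limma test over all probe sets neither Abcc1 probe set passed (adjusted p = 0.0722 and 0.1371).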

How the results depend on the processing

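Of 760 settings of a member and comparison, 726 left the result on its side of the threshold, 27 removed a call and 7 made one, and no called value changed sign. Values not called in either setting changed sign 34 times in 12 results, none larger than 0.16 in size. Between the stimulated genotypes 2 members were called, and 1 with only the groups compared in the model and 1 at 1.5-fold with a false discovery rate under 0.5. In the difference between responses 2 were called, and 1 without variance moderation, after centring, after quantile normalization, with the mean of all probe sets and at 1.5-fold. The member lost was Abcc1 each time. In the Nos2-/- response 6 were called, and 3 at 1.5-fold. In the WT response the calls of Abcc1 (1.45-fold) and Slc22a5 (1.17-fold) were lost at 1.5-fold. Without single arrays the counts ranged from 2 to 3 between the stimulated genotypes, 1 to 2 for the difference, 5 to 6 in the Nos2-/- response, 6 to 7 in the WT response and 0 between the untreated groups. Abcc4 was also called between the stimulated genotypes with an intensity trend (adjusted p = 0.0339) and without dim genes (adjusted p = 0.0364). Centring moved the median response of all genes to 0.17 in Nos2-/- and 0.18 in WT, against 0.05 and 0.07 as reported. The replicate number as a block gave counts of 2, 2, 6, 7 and 0, the same as without it. Deviations of same-numbered arrays from their group means correlated at -0.26 to 0.21 over 18 pairs. Those of arrays with different numbers correlated at -0.17 to 0.27 over 36 pairs. With 3 arrays in a group this cannot tell whether the numbers pair the samples. Abcb1a, near or below the array medians, has no value where dim genes were left out.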
